A study of Mus musculus with 5 samples.

Results

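Among 20307 barcodes of single-nuclei RNA sequencing from interscapular brown adipose tissue (iBAT) of 3-month-old mice, 177 nuclei met a gate of genes used by antigen-presenting cells. A nucleus entered with at least 400 UMIs, at least 3 UMIs summed over Wdfy4, Bank1, Ciita, Bcl11a, Irf8, Ccr2 and Arhgap45, taken from at least 2 of these 7 genes, and at most 1 UMI summed over Mrc1, F13a1, Gpnmb, Themis, Bcl11b, Flt1 and Pdgfra. A UMI, or unique molecular identifier, stands for 1 captured RNA molecule. The gated nuclei were 0.872% of all nuclei (exact 95% interval 0.748 to 1.01) and are 177 of the 50307 barcodes of the series. Of them, 43 nuclei (24.3%, interval 18.2 to 31.3) held at least 1 UMI of Pax5, Ms4a1 or Ighm and are called B-type here, and the remaining 134 are called other gated nuclei.

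The matrix joins 2 libraries of sorted nuclei, from Ucp1-STX4KO mice (Ucp1-Cre+/- with STX4 fl/fl) and from WT littermates carrying either Ucp1-Cre+/- or STX4 fl/fl alone, all male and on a C57BL/6J background. Cre is driven by the Ucp1 promoter, active in brown adipocytes, so Stx4 was targeted in these and not in immune cells. Some gated nuclei held much adipocyte RNA, as given below, and whether adipocyte nuclei are among them was not tested. The methods give 4 male mice without dividing them among the libraries, the labels call all samples brown adipocytes, and the nuclei were released by a homogenization tuned to enrich brown adipocyte nuclei. Barcodes carry a suffix, 1 or 2, that tells the libraries apart, but its genotype is given by no label. Libraries are therefore named suffix 1 and suffix 2 and no comparison of genotypes was made, there being 1 library per genotype and no replicate. All intervals are exact 95% intervals that cover counting error only, and p-values were not computed since nuclei are not replicates.

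Professional antigen-presenting cells are dendritic cells, B cells and macrophages. They cut proteins taken up from outside and load the peptides on major histocompatibility complex (MHC) class II molecules, which are shown to CD4 T cells together with costimulatory proteins. CIITA, encoded by Ciita, is the master coactivator of the MHC class II genes. It binds no DNA itself and is recruited to a conserved promoter module that ends in a Y box, an ATTGG motif bound by NF-Y. WDFY4 serves cross-presentation in conventional type 1 dendritic cells (cDC1), IRF8 is needed for their development, BANK1 is an adaptor of B-cell receptor signalling, BCL11A acts in B-cell and plasmacytoid dendritic cell development, and CCR2 is the chemokine receptor of monocytes and their progeny.

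Promoter sequences of 3 MHC class II genes are shown because the results below turn on this pathway and on Ciita. Each runs from 250 bases before to 50 bases after the RefSeq start, on the gene's own strand, with ATTGG or its reverse complement CCAAT in capitals. The H2-Aa window is chr17:34287774-34288073 on the minus strand, that of H2-Eb1 is chr17:34305617-34305916 on the plus strand, and that of H2-DMb1 is chr17:34152941-34153240 on the plus strand (GRCm38.p6).
H2-Aa: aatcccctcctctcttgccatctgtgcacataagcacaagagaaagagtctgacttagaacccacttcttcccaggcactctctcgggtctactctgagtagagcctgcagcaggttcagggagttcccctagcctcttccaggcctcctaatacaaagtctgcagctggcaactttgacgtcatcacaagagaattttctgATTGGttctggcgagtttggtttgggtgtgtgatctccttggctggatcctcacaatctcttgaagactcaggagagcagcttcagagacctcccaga
H2-Eb1: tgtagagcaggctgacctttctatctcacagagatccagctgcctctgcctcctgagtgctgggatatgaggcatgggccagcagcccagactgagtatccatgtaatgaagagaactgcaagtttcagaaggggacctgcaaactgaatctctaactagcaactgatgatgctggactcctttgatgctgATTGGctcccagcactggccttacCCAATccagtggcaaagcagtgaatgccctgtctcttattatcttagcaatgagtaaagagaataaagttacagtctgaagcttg
H2-DMb1: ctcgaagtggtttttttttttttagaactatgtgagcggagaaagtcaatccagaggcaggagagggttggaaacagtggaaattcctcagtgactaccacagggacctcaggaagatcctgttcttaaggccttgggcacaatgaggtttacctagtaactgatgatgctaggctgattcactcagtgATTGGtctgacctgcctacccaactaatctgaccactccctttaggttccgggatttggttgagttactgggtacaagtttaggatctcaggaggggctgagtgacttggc
H2-Aa and H2-Eb1 encode the alpha chain of I-A and the beta chain of I-E, the classical class II molecules, and H2-DMb1 a chain of the peptide loader H2-DM. The motif begins 48 bases before the start in H2-Aa and 61 in H2-DMb1, and H2-Eb1 holds it at 59 bases and, as CCAAT, at 35 bases. Of the 12 class II pathway genes followed here, 10 had a promoter in the RefSeq table and 8 of these held the motif on either strand, in 8 of 11 windows (72.7%). Over all promoters of that length 12289 of 32851 (37.4%) held it, as did 7 of 8 windows of MHC class I genes (87.5%) and 3 of 17 of B-cell receptor signalling genes (17.6%). H2-Ab1 and Cd74 had no entry. A match of 5 letters is a description of the sequence and not evidence of binding.

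The members were chosen by their UMIs of the 7 gate genes and the 7 excluded genes, and the B-type nuclei by Pax5, Ms4a1 and Ighm, so these values are a description with no test. Suffix 1 held 30 gated nuclei of 11201 (0.268%) and suffix 2 held 147 of 9106 (1.61%, interval 1.37 to 1.90). The libraries also differed in depth, with median UMIs of 5998 and 3284.5 per nucleus, and in makeup, with nuclei meeting an adipocyte gate of Adipoq, Plin1, Lipe and Cidec at 93.2% and 46.8%. Which of these moves the share cannot be told apart from genotype. Gated nuclei had a median of 1979 UMIs (629 to 34658), against 4999.5 in the rest, so they were among the shallower nuclei of the matrix. The libraries shared 23 barcodes, none of a gated nucleus.

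Arhgap45, a GTPase-activating protein of blood cells, was counted in 128 of the 177 nuclei, Wdfy4 in 108, Ciita in 90, Irf8 in 77, Bank1 in 60, Ccr2 in 49 and Bcl11a in 46. On GRCm38 (GENCODE vM21) Wdfy4 lies at chr14:32959547-33185508 on the minus strand, Bank1 at chr3:136053363-136326066 on the minus strand, Ciita at chr16:10480059-10528418 on the plus strand and Irf8 at chr8:120736358-120756694 on the plus strand. Lrrc18 lies antisense to Wdfy4 and Dexi to Ciita, so some of their UMIs could come from these genes if strand was not used in counting. The genes did not all fall in the same nuclei. Wdfy4 and Ciita were counted together in 61 nuclei and Ccr2 and Arhgap45 in 41, whereas Bank1 and Ccr2 met in only 4. At the edge of the gate, 46 members held exactly 3 UMIs of the 7 genes, 18 held 4 and 95 held more than 5. Outside it lay 61 nuclei with 2 UMIs from 2 genes and 31 with 3 or more UMIs from 1 gene. Of the excluded genes, 106 members had no UMI and 71 had 1, while 46 nuclei that otherwise passed had 2 and 554 had more.

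A fixed number of UMIs is easier to reach in a deep nucleus. In 158 members the 7 genes made up at least 1 in 1000 of the UMIs, and in the other 19 (9 with suffix 1 and 10 with suffix 2) they made up less. These 19 nuclei had a median of 7926 UMIs and held 33.7% of all UMIs of the gated nuclei. Summed over 8 adipocyte markers, their level was 9813 CPM (UMIs of a gene or list per 1000000 UMIs of the class), close to the 11946 CPM of 14704 adipocyte-type nuclei, against 4235 CPM in the 158. They also held 1753 of the 1822 UMIs of skeletal muscle markers among the members, nearly all in a nucleus with 1175 and another with 574. List ratios of B-type to other nuclei are therefore given over all 177 and over the 158, and the part these deep nuclei play in other differences was not tested.

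**Figure D1:**
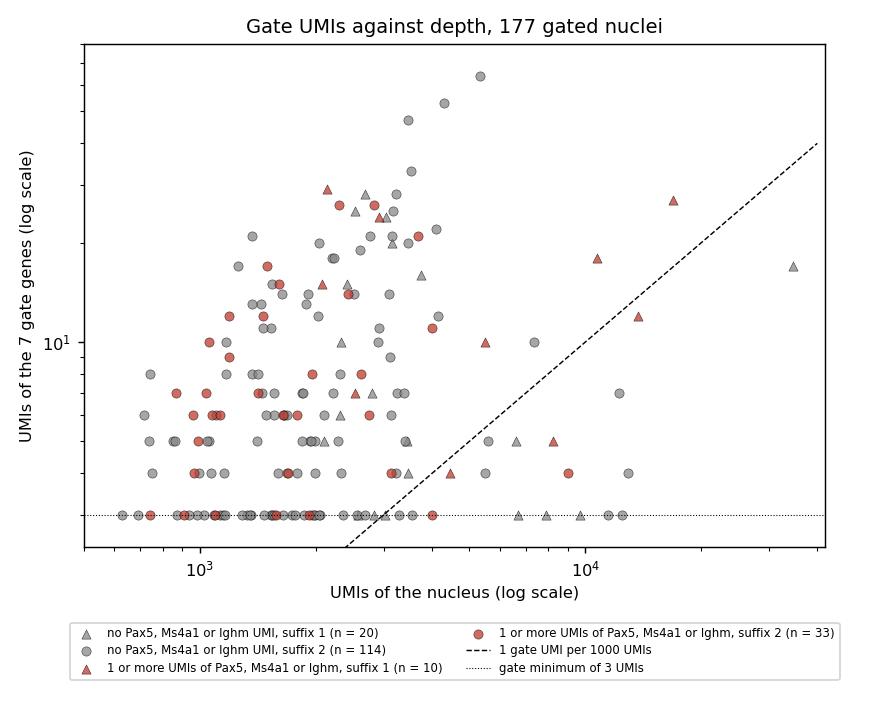
UMIs of the 7 gate genes against all UMIs of a nucleus for the 177 gated nuclei, both on log scales. Triangles are suffix 1, circles suffix 2, red marks B-type nuclei, the dotted line is the minimum of 3 UMIs and the dashed line 1 gate UMI per 1000. The 19 nuclei under the dashed line lie mostly at the deep end, and B-type nuclei are spread over the whole range.

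To check the label of an antigen-presenting B and dendritic population, the 177 nuclei were clustered with the gate genes, the excluded genes, the 3 B-cell genes and the MHC class II, costimulation, endosomal receptor, trafficking and pyroptosis lists left out. A cluster was named where at least 3 markers of a list had at least 2 times the CPM of the remaining members (5 CPM added to both), over the 158 nuclei at or above 1 gate UMI per 1000. Clustering uses the genes of these nuclei, so what separates the clusters is a description. The 5 clusters only partly bore the label out. Of the 177 nuclei 40 were cDC1-like and 30 B-like, but 40 were macrophage-like, 34 could not be named and 33 were led by the T-cell gene Skap1. The gated nuclei are therefore called by their gate and not as B and dendritic cells. No cluster met the rule for plasma cells, of whose 6 markers Mzb1, Derl3 and Tnfrsf17 had no UMI and all 11 UMIs of Igha lay in 1 nucleus.

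The cDC1-like cluster (22.6% of the members, 5 nuclei with suffix 1 and 35 with suffix 2) raised all 8 cDC1 markers, of which Wdfy4 and Irf8 are gate genes and Xcr1, Clec9a, Batf3, Cadm1, Itgae and Tlr3 are not. Clec9a, the receptor by which cDC1 sense dead cells, had 82 UMIs in 27 of its 39 nuclei at or above 1 gate UMI per 1000, or 880 CPM (interval 700 to 1092), and 94.4 CPM in the macrophage-like cluster and 0 in the Skap1-led and B-like clusters. Xcr1, the chemokine receptor of cDC1, had 14 UMIs there and 1 UMI in the other clusters. Cadm1, an adhesion molecule of cDC1, was at 2757 CPM and Wdfy4, a gate gene, at 4195 CPM. Its leading genes also held Zfp366, which encodes the dendritic cell regulator DC-SCRIPT (48 UMIs in 18 nuclei), Naaa (110 UMIs in 30 nuclei), P3h2, Ccser1 and the predicted gene Gm36723. Flt3, the receptor of the dendritic cell growth factor, was at 472 CPM, and Zbtb46, a transcription factor of conventional dendritic cells, at 579 CPM. With 10 in place of 15 principal components the cluster held 34 nuclei, led by Plpp1, Gm36723 and Ccser1, and no longer met the rule for a name, while 8 nuclei apart from it met the rule for migratory dendritic cells.

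The B-like cluster (17.0%, 4 and 26 nuclei) raised all 12 B-cell markers, among which Bank1 is a gate gene and Pax5, Ms4a1 and Ighm define the split. Bank1 stood at 3378 CPM, against 11 to 625 CPM in the remaining clusters. Among markers that neither gate nor split used, Ighd, the constant region of IgD, had 21 UMIs in 15 of 28 nuclei and 3 UMIs in all other clusters. Ralgps2, a Ras-like exchange factor abundant in B cells, was at 1924 CPM and at 11.8 to 214 CPM elsewhere. Cd79a, a signalling chain of the B-cell receptor, had only 7 UMIs. Its other leading genes were Tmem163, Chst3, Cmah, BE692007, Ripor2 and Zfp831. Of the 43 B-type nuclei 23 lay in this cluster and 11 in the Skap1-led cluster. When all 30 nuclei were used for naming, the skeletal muscle list had the highest median fold, with the 2 nuclei below 1 gate UMI per 1000 included, so the name rests on the other 28.

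The macrophage-like cluster (22.6%, 6 and 34 nuclei) raised 6 of 10 macrophage markers although Mrc1, F13a1 and Gpnmb had been limited by the gate. Mertk, a receptor for clearing dead cells, was at 1192 CPM and at most 118 CPM in the remaining clusters, and Adgre1, which encodes F4/80, at 649 CPM against at most 135 CPM. Csf1r and C1qa, the receptor for the macrophage growth factor and a complement subunit, had 25 and 14 UMIs and at most 4 elsewhere. Bcl11a and Flt3 had no UMI in this cluster, and a count of 3 UMIs there would be 35.4 CPM.

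The unnamed cluster (19.2%, 2 and 32 nuclei) had some dendritic and monocyte markers, mostly at few UMIs. Of 9 markers of type 2 conventional dendritic cells all were counted and 4 were raised, namely the lectins Cd209a, Clec10a and Mgl2, with 4, 5 and 2 UMIs, and the gate gene Ccr2. The plasmacytoid marker Siglech had 8 UMIs in 4 nuclei and none in the remaining clusters, and Fn1, a fibronectin gene of monocytes and stroma, 17 UMIs in 5 nuclei. As whole lists, type 2 dendritic markers were at 1513 CPM here and 1534 in the cDC1-like cluster. The 9 plasmacytoid markers were at 975 CPM here and 983 in the B-like cluster. The 8 monocyte markers, which include the gate gene Ccr2, were at 1042 CPM here and at most 449 CPM in the remaining clusters. It was led by Grm8, Stxbp6, Rnd3, Rhoj and Gda, none of them a marker of a list. The list with the highest median fold was mural, which rested on 4 markers with few UMIs and on no leading gene.

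The Skap1-led cluster (18.6%, 13 and 20 nuclei) met the rule for T cells, with 6 of 8 markers raised, but 6 of 7 markers of natural killer and innate lymphoid cells and 7 of 8 adipocyte markers were raised as well, so it is called by its leading gene. Skap1, an adaptor of the T-cell receptor, had 90 UMIs in 10 of its 19 nuclei at or above 1 gate UMI per 1000 and none in the remaining clusters. The defining T-cell gene Cd3e had 2 UMIs and Cd3g none, and Themis and Bcl11b were limited by the gate. Of its 33 nuclei 14 were among the 19 below 1 gate UMI per 1000, and its adipocyte markers summed to 9537 CPM, against 2446 to 4746 CPM in the remaining clusters. At a resolution of 1.0 it parted into 11 T-like nuclei and 22 that could not be named, and at 0.3 it merged with the B-like cluster.

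**Figure D2:**
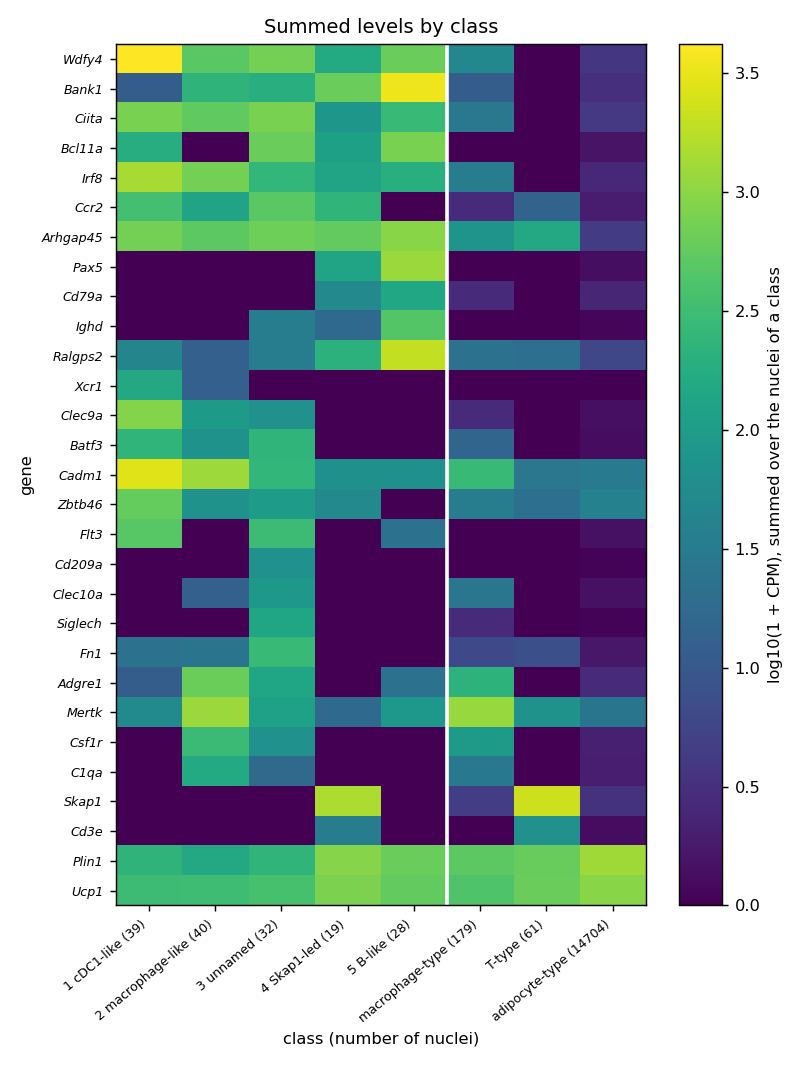
Summed level of 29 genes as log10(1 + CPM) in the 5 clusters of gated nuclei (members at or above 1 gate UMI per 1000) and, right of the white line, in macrophage-type, T-type and adipocyte-type nuclei, with the number of nuclei in brackets. Clec9a, Xcr1 and Cadm1 are brightest in cluster 1, Mertk, Adgre1, Csf1r and C1qa in cluster 2, Siglech and Fn1 in cluster 3, Skap1 in cluster 4 and T-type nuclei, and Pax5, Ighd and Ralgps2 in cluster 5.

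The heat map of these levels shows each named cluster bright in its own markers, while Plin1 and Ucp1, genes of brown adipocytes, carry colour in every class. Ucp1 was at 300.4 to 806 CPM in the 5 clusters, and the B-type nuclei held a higher adipocyte marker level than the other gated nuclei when the libraries were summed (7658 and 5567 CPM, ratio 1.38; 1.86, 1.68 to 2.07, over the 158 nuclei). In suffix 1 the levels were 10047 (9313 to 10822) and 7759 CPM (7243 to 8303). In suffix 2 they were 5173 (4640 to 5749) and 4711 CPM (4458 to 4974), with overlapping intervals. The part of RNA from other cells or of doublets in the counts below was not tested.

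MHC class II RNA was found in every cluster. Summed over the 12 genes (H2-Aa, H2-Ab1, H2-Eb1, H2-Eb2, H2-DMa, H2-DMb1, H2-DMb2, H2-Oa, H2-Ob, Cd74, Ctss and Ifi30), the gated nuclei held 783 UMIs, or 1506 CPM (1402 to 1615). The unnamed cluster was at 3110 CPM (2678 to 3592), the cDC1-like at 2618 CPM (2299 to 2968), the macrophage-like at 1971 CPM (1684 to 2294) and the B-like at 1903 CPM (1528 to 2341). The first and second did not differ beyond counting error (ratio 1.19, 0.976 to 1.44), nor did the macrophage-like and B-like clusters (1.04, 0.796 to 1.36), whose order turned between the libraries (2.58, 1.53 to 4.56, in suffix 1 and 0.723, 0.527 to 0.996, in suffix 2). In suffix 1 the macrophage-like level was also no lower than the cDC1-like (ratio 1.46, 0.953 to 2.26), whereas in suffix 2 it was (0.568, 0.443 to 0.724). The Skap1-led cluster was lowest at 477 CPM. The other 4 clusters were 3.99 to 6.52 times as high, and above it in both libraries.

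Outside the gate the pathway was lower. It was at 771 CPM in 179 macrophage-type nuclei (at least 3 UMIs from at least 2 of Mrc1, F13a1 and Gpnmb, and at most 1 UMI over the 7 gate genes, Themis, Bcl11b, Flt1 and Pdgfra), at 66.0 CPM in 61 T-type nuclei (the same of 4 T-cell genes, Themis, Bcl11b and Skap1 among them) and at 30.3 CPM in the adipocyte-type nuclei. At least 1 UMI of H2-Aa, H2-Ab1, H2-Eb1 or Cd74 was found in 71.8% of the gated nuclei, 31.8% of macrophage-type, 4.92% of T-type and 7.65% of 2000 adipocyte-type nuclei, at median depths of 1979, 2394, 1408 and 5856 UMIs. If each nucleus were drawn down to 500 UMIs, the share expected would be 39.3%, 10.95%, 1.20% and 0.913%. T cells and adipocytes should make little of these RNAs, and the gated nuclei lay above both classes at that depth. T-type nuclei were held to at most 1 UMI over genes that include the 7 gate genes, Ciita among them, whereas gated nuclei could enter by Ciita. These shares are therefore a description, and the part of background RNA in them was not tested. By cluster the expected share was 55.1% in the cDC1-like, 50.5% in the unnamed, 41.7% in the B-like, 37.9% in the macrophage-like and 14.6% in the Skap1-led nuclei.

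**Figure D3:**
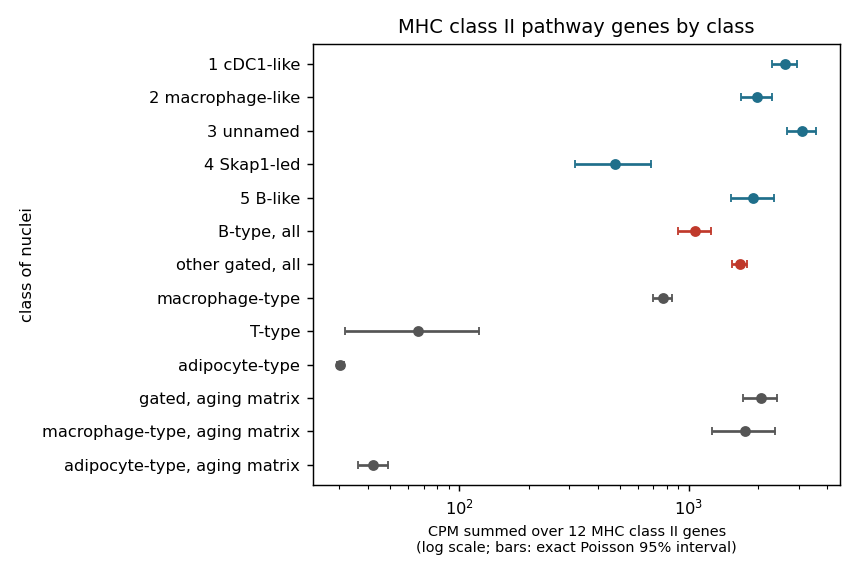
CPM summed over the 12 MHC class II pathway genes by class of nuclei on a log scale, with exact Poisson 95% intervals. Clusters 1, 2, 3 and 5 lie between 1903 and 3110 CPM, the Skap1-led cluster and macrophage-type nuclei at 477 and 771 CPM, and T-type and adipocyte-type nuclei at 66.0 and 30.3 CPM.

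Against macrophage-type nuclei the list was 1.95 times higher in gated nuclei (1.74 to 2.20). The gates held no gene of this list, but they did select on its coactivator Ciita, which admits a gated nucleus and is limited in macrophage-type nuclei, so the ratio is given as description. Gated nuclei without a Ciita UMI held 942 CPM, against 771 CPM in macrophage-type nuclei. Of 4441 genes with at least 50 UMIs in both classes together, 6.55% were at least 2 times higher in gated nuclei and 6.51% at most 0.5 times as high. Of the 12 MHC class II genes 5 had that many UMIs, and 4 of these were past 2-fold: Cd74, the invariant chain (ratio 7.60, 5.14 to 11.6), H2-Eb1 (5.75, 3.76 to 9.11), H2-Ab1 (4.82, 3.04 to 7.93) and H2-Aa (4.13, 2.78 to 6.31). Ctss, the protease that trims the invariant chain, went the other way, with 113 UMIs in 62 gated and 298 UMIs in 107 macrophage-type nuclei (0.408, 0.326 to 0.508). The ratio of the list was 2.18 in suffix 2 and 1.23 (0.742 to 2.20) in suffix 1, where only 3 macrophage-type nuclei were found, and 2.69 over the 158 nuclei. Without Cd74 it was 1.55.

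The list's low-count genes differed among themselves. H2-Ob and H2-DMb2, parts of the class II regulators of loading found mainly in B cells and dendritic cells, had 29 and 11 UMIs in gated nuclei and 1 and 0 in macrophage-type nuclei, while Ifi30, a thiol reductase of the endosome, had 5 and 6. Reads of H2-DMa overlap those of Brd2 on the opposite strand, and members of the H2 family resemble each other closely enough that the counting may have split them, so these values are uncertain.

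Genes with no UMI in any macrophage-type nucleus included Dpp4, a surface peptidase of cDC1 and T cells (114 UMIs in 53 gated nuclei), Btla, an inhibitory receptor of lymphocytes and dendritic cells (99 UMIs in 46), Flt3 (68 UMIs in 34), Tmem163, Htr7 and Zfp366. Against a floor of 3 UMIs Dpp4 would be 40.9-fold, Btla 35.5-fold and Flt3 24.4-fold higher. The exact lower limits of these ratios were 32.7, 28.3 and 19.3. Gm36723 had 174 UMIs against 1 and St6galnac3 106 against 1. In the other direction, Hpgds, a prostaglandin D synthase and a leading gene of the macrophage-like cluster, had 32 UMIs in 25 gated and 235 in 99 macrophage-type nuclei.

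Ciita is both a gate gene and the coactivator of the pathway, so the 90 members with a Ciita UMI were set beside the 87 without. Those with Ciita held MHC class II RNA at 1957 CPM and those without at 942 CPM, 2.08 times as high (1.77 to 2.44). Suffix 2 gave 2.83 (2.36 to 3.41) but suffix 1 gave 1.11 (0.810 to 1.54), and the 158 nuclei 1.66. Nuclei with Ciita were also deeper, with medians of 2211 and 1781 UMIs, and thinned to 500 UMIs the ratio was 1.75 (1.24 to 2.50). Ciita itself was at 790 CPM in the unnamed, 783 in the cDC1-like, 543 in the macrophage-like, 278 in the B-like and 82.2 in the Skap1-led cluster. This split was chosen after values had been seen and is given as description.

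B-type and other gated nuclei had nearly the same median depth (1917 and 1988.5 UMIs). Pax5, the master regulator of B-cell identity, gave 67 UMIs in 26 nuclei, Ighm, the constant region of IgM, 52 in 33, and Ms4a1, which encodes CD20, 16 in 13. Of the 43 nuclei 22 held 3 or more of these UMIs, 10 held 2 and 11 only 1. Thinned to 500 UMIs, Pax5 was found in 5.65% of gated nuclei, in no macrophage-type or T-type nucleus and in 1 of 2000 adipocyte-type nuclei, while Ighm was found in 7.35% of gated and in 0.450% of adipocyte-type nuclei. B-type nuclei were 33.3% of the members in suffix 1 and 22.5% in suffix 2.

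Of 2495 genes with at least 50 UMIs in both groups together, 104 (4.17%) had a CPM in B-type nuclei at least 2 times that of other gated nuclei and 289 (11.6%) at most 0.5 times, around a median ratio of 0.993. Over the 158 nuclei the shares were 9.10% and 16.9% of 1682 genes. The highest after the split genes were Tmem163, a zinc transporter (70 UMIs in 23 nuclei against 15 in 9, ratio 13.2, 7.50 to 24.9), Ralgps2 (11.8, 7.44 to 19.5) and the gate gene Bank1 (11.3). Then came Pecam1 (9.26), Ripor2 (7.22), the lymphoid transcription factors Ets1 (5.04) and Satb1 (4.53) and the exchange factor Arhgef18 (4.53). A higher level in both libraries was a condition of this ranking. Pecam1, which encodes CD31, is also an endothelial marker. It had 49 UMIs in 24 B-type nuclei, while the other 5 endothelial markers had 2 to 9 UMIs each in all 177 members. Of these Ptprb had 4 UMIs, all in 1 B-type nucleus, and Flt1, limited by the gate, Cyyr1, Cdh5 and Tek had 2, 2, 2 and 0 UMIs in B-type against 7, 5, 1 and 2 in other nuclei.

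B-lineage transcription factors were higher in B-type nuclei. Of 10 genes 7 had enough UMIs and 5 of these were past 2-fold. Aff3 was at a ratio of 3.74 (2.91 to 4.81), the Ikaros family gene Ikzf3 at 3.97 (2.42 to 6.56), Bach2, a repressor that holds B cells from plasma cell fate, at 3.46 (2.73 to 4.38), Pou2f2 at 2.75 (1.67 to 4.54) and Ebf1, the pioneer factor of the lineage, at 2.13 (1.90 to 2.38). All 5 kept an interval over 1 in both libraries. Ebf1 is also abundant in adipocytes, being found in 83.1% of the adipocyte-type nuclei thinned to 500 UMIs, and is no sign of a B cell here by itself. The list as a whole stood at 2.38 (2.20 to 2.58), and at 1.78 and 2.88 in the 2 libraries. Over the 158 nuclei it was at 3.58 (3.23 to 3.97) with 6 of 7 genes past 2-fold, Ebf1 being at 4.48 (3.81 to 5.28) and Foxo1, a factor of early B-cell development, at 3.83 (2.64 to 5.59) in place of 1.75 (1.34 to 2.29). Foxo1 too is common in adipocytes, being found in 27.2% of adipocyte-type and 16.4% of gated nuclei thinned to 500 UMIs. The whole list was at 5411 CPM in adipocyte-type and 4597 CPM in gated nuclei. The part of adipocyte RNA in the ratios of this list was not tested.

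B-cell receptor signalling genes were higher as a list (1.86, 1.67 to 2.06; 2.46 in suffix 1 and 2.09 in suffix 2), with a mixed membership. Of 18 genes 9 had enough UMIs, and 3 were past 2-fold: Ralgps2, Prkcb, the kinase PKC-beta (2.57, 1.91 to 3.46), and Blnk, the adaptor downstream of SYK (2.04, 1.33 to 3.10). Over the 158 nuclei the list was at 1.65 and Blnk was no longer past 2-fold (1.85, 1.19 to 2.86). Syk (1.32, 0.975 to 1.77), Lyn (0.989, 0.776 to 1.25), Btk (1.51, 0.889 to 2.50) and Plcg2 (1.13) did not differ beyond counting error when summed, though Syk did in suffix 2 (1.66, 1.17 to 2.33). SYK, LYN and BTK also signal in myeloid cells, and Syk was at 803 CPM in the macrophage-like cluster and 1176 CPM in the B-like. The receptor's own parts were sparse but sided with the split: Cd79a had 12 UMIs in B-type nuclei and 0 in others, Fcmr 9 and 0, Blk 19 and 3, Cd22 20 and 7, and Cr2 12 and 3.

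MHC class II was lower in B-type nuclei beyond counting error in suffix 1 and not in suffix 2. The list was lower in B-type nuclei when summed (1061 and 1662 CPM, ratio 0.638, 0.529 to 0.766), and H2-Aa (0.454), H2-Ab1 (0.409) and H2-Eb1 (0.369) were past 2-fold, whereas Cd74 was not (0.820, 0.577 to 1.14). In suffix 1 the ratio was 0.377 (0.261 to 0.532) and in suffix 2 it was 0.913 (0.730 to 1.13). With every nucleus weighted alike it was 0.833, thinned to 500 UMIs 0.993 (0.663 to 1.46), and over the 158 nuclei 0.570 (0.467 to 0.691). B-type nuclei of suffix 1 were also deeper than other gated nuclei there (medians of 4970 and 3035 UMIs) and held more of the adipocyte markers (10047 and 7759 CPM, or 8053 and 4987 UMIs per 1000000 as means over nuclei). The part of either was not tested. The share of nuclei expected to show a core class II UMI at 500 UMIs was 34.3% in B-type and 40.9% in other nuclei. Ciita, the coactivator of this list, is a gate gene. Over the 158 nuclei it had 29 UMIs in B-type against 155 in other nuclei (0.484, 0.3135 to 0.722). The gate therefore shapes the class II ratios of B-type to other nuclei, and they are given as description.

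MHC class I genes were lower in B-type nuclei in both libraries (0.549, 0.437 to 0.682; 0.488 and 0.712). B2m, the light chain, was at 0.467 (0.245 to 0.827) and Nlrc5, the class I counterpart of CIITA, at 0.363 (0.197 to 0.624), the 2 of 4 testable genes past 2-fold. H2-K1 and H2-D1, the heavy chains, were at 0.646 and 0.835. Over the 158 nuclei the list was at 0.491 (0.383 to 0.622). By class it was at 2006 CPM (1729 to 2315) in the cDC1-like cluster and 919 to 1558 CPM in the remaining clusters, beside 2039 CPM (1818 to 2280) in T-type and 724 CPM in macrophage-type nuclei.

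**Figure D4:**
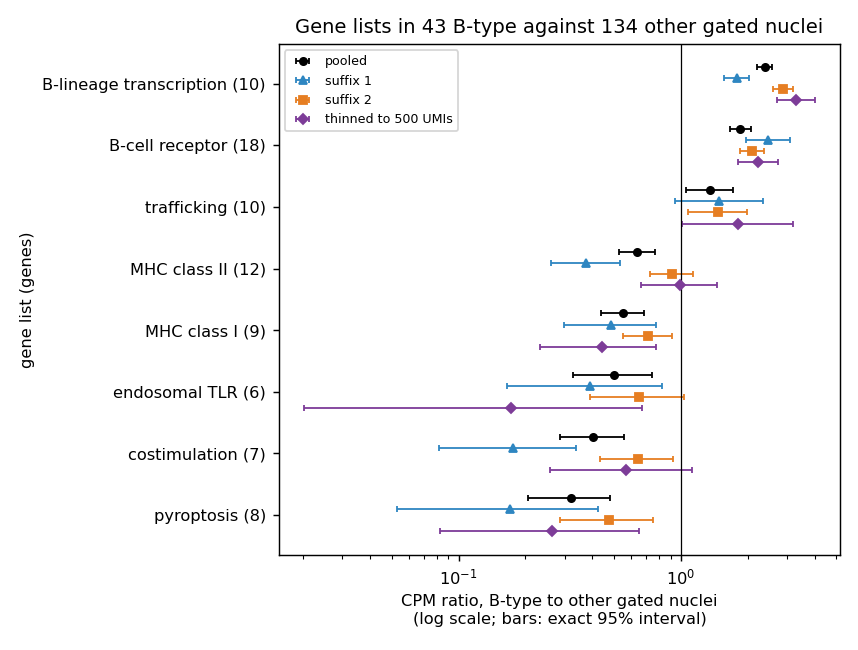
CPM ratio of 43 B-type to 134 other gated nuclei for 8 gene lists on a log scale, pooled, by library, and after thinning every nucleus once to 500 UMIs, with exact 95% intervals. B-lineage and B-cell receptor lists lie right of 1 in every setting, MHC class I and pyroptosis lie left of it, and MHC class II crosses 1 in suffix 2 and after thinning.

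Costimulatory ligands were lower in B-type nuclei (0.403, 0.287 to 0.555; 0.175 and 0.642 by library, 0.229, 0.147 to 0.342, over the 158 nuclei, and 0.567, 0.258 to 1.12, when thinned). Cd86, the main ligand of CD28, had 13 UMIs against 131 (0.281, 0.146 to 0.498), and Cd83, a maturation marker, 6 against 57 (0.298, 0.105 to 0.690). By cluster the list was at 1983 CPM (1694 to 2307) in the macrophage-like nuclei, 1041 CPM (844 to 1269) in the cDC1-like, 387 in the unnamed, 342 in the B-like and 263 in the Skap1-led. The unnamed and B-like clusters did not differ in costimulation beyond counting error (ratio 1.13, 0.572 to 2.29), whereas MHC class II was 1.64 times as high (1.26 to 2.13) in the unnamed. Of the 144 UMIs of Cd86, 37 came from 1 nucleus, and with nuclei weighted alike the macrophage-like cluster was at 1474 and the cDC1-like at 909 UMIs per 1000000.

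Endosomal Toll-like receptors sense nucleic acids in engulfed material, and UNC93B1 carries them there. Unc93b1 was lower in B-type nuclei (21 UMIs against 134, ratio 0.444, 0.266 to 0.707), at 0.302 and 0.605 (0.327 to 1.05) by library and 0.360 (0.203 to 0.601) over the 158 nuclei. Tlr3, a receptor for double-stranded RNA known for cDC1, had 16 UMIs in 13 cDC1-like nuclei, 2 UMIs in 1 Skap1-led nucleus and none in the remaining clusters, counted over the 158 nuclei. Tlr7 had 7 UMIs in the macrophage-like cluster and 0 in the cDC1-like, and over the gate 10 UMIs against 36 in macrophage-type nuclei (0.299, 0.132 to 0.614). Tlr9 had 1 UMI.

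Trafficking genes were slightly higher in B-type nuclei (1.35, 1.05 to 1.72; 1.12, 0.855 to 1.46, over the 158 nuclei). Cxcr5, the follicle-homing receptor of B cells, had 8 UMIs in B-type nuclei and 0 in the other gated nuclei. Ccr7, the receptor that leads dendritic cells to lymph nodes, had only 12 UMIs in all members, 6 of them in 3 cDC1-like nuclei. Itga4, the alpha4 integrin, did not differ between the groups (0.933, 0.679 to 1.27) and was 2.91 times higher (2.26 to 3.78) than in macrophage-type nuclei.

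Pyroptosis is the inflammatory death that the study follows in brown adipocytes, and its genes were at 492 CPM in the gated nuclei, 433 CPM in macrophage-type and 8.62 CPM in adipocyte-type nuclei. The list was lower in B-type nuclei (0.320, 0.205 to 0.482; 0.170 and 0.474 by library; 0.273, 0.169 to 0.420, over the 158 nuclei). Nlrp1b, an inflammasome sensor, made up 134 of the list's 256 UMIs. It had 5 UMIs in 2 B-type nuclei and 129 UMIs in 58 other nuclei (0.110, 0.0351 to 0.263), 0 against 26 in suffix 1 and 5 against 103 in suffix 2. By cluster it was at 567 CPM in the macrophage-like, 547 in the cDC1-like and 437 in the unnamed nuclei, with 1 UMI in the Skap1-led cluster and 0 in the B-like, where 3 UMIs would be 64.1 CPM. Macrophage-type nuclei held it at the level of the gated nuclei (ratio 1.01, 0.790 to 1.29). It belongs to a family of near-identical genes, so its counts may be split with them.

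Of the remaining pyroptosis genes, only Aim2, a sensor of cytosolic DNA, had enough UMIs for a call. It did not differ between B-type and other nuclei beyond counting error (0.966, 0.499 to 1.77; 0.781, 0.386 to 1.48, over the 158 nuclei) and was highest in the cDC1-like cluster, at 343 CPM (235 to 485) against at most 150 CPM elsewhere. It was 2.35 times higher (1.47 to 3.86) in gated than in macrophage-type nuclei. The other 6 genes had too few UMIs for a call. Gsdmd, the pore-forming gasdermin, had 4 UMIs in B-type nuclei against 21 (0.540, 0.135 to 1.60), Casp4, the caspase of the noncanonical pathway, 2 against 21 (interval of the ratio 0.0307 to 1.10), and Il18, a cytokine released in pyroptosis, 0 against 8. Casp1, Nlrp3 and Il1b had 0 against 3, 0 against 3 and 0 against 1. Over the 158 nuclei Casp4 had 1 UMI against 20 (0.129, 0.00312 to 0.808).

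**Figure D5:**
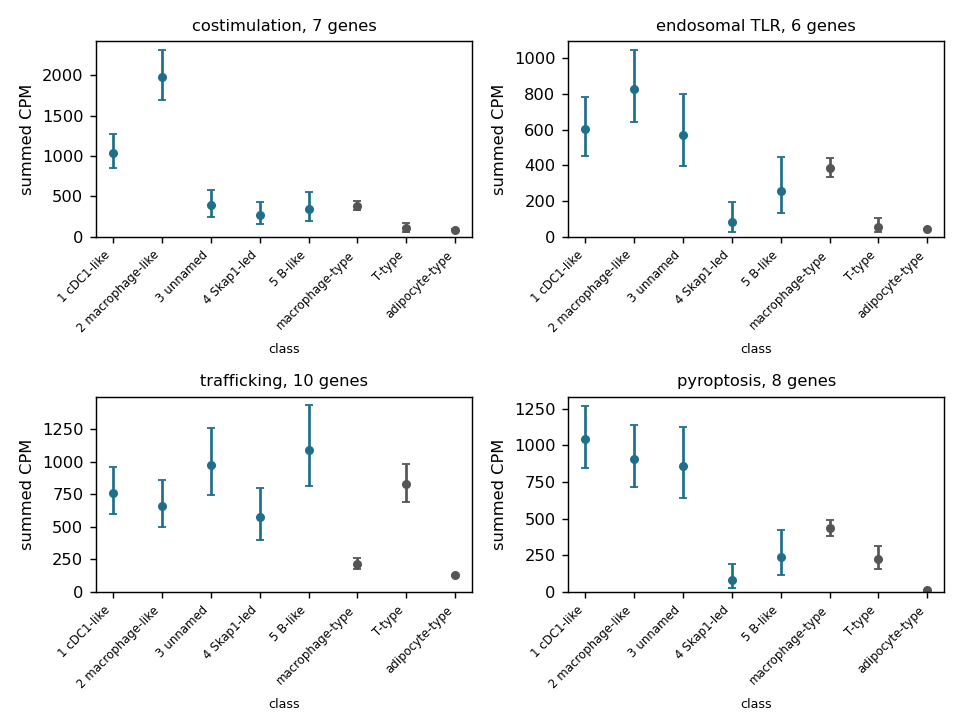
CPM summed over the costimulation, endosomal Toll-like receptor, trafficking and pyroptosis lists in the 5 clusters of gated nuclei (blue) and in macrophage-type, T-type and adipocyte-type nuclei (grey), with exact Poisson 95% intervals. Pyroptosis and endosomal receptor genes are high in clusters 1, 2 and 3 and low in clusters 4 and 5, and costimulation peaks in cluster 2.

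The 4 panels by class show the B-like cluster at 1090 CPM (812 to 1433) for trafficking. The unnamed cluster was at 975 CPM, the cDC1-like at 762 CPM and the macrophage-like at 661 CPM (499 to 858). The B-like cluster lay below these clusters for pyroptosis genes. There the cDC1-like cluster was 4.43 times (2.37 to 9.16) and the macrophage-like 3.87 times (2.04 to 8.06) as high. In suffix 2 alone these ratios were 4.03 and 3.21, both with intervals over 1.

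The lowest genes of B-type nuclei were Pxn, Zfp366 and Pstpip2, with 0 UMIs against 53, 50 and 52. At a floor of 3 UMIs they would be 0.160, 0.170 and 0.163 times the level of other nuclei, with exact upper limits of 0.204, 0.217 and 0.208. Pxn encodes paxillin of focal adhesions and Pstpip2 a regulator of the macrophage cytoskeleton, and Pxn was counted in 35 other nuclei and Pstpip2 in 23. Sh3pxd2b, a podosome scaffold, had 2 UMIs against 52 in 36 nuclei, and 1700025G04Rik 4 against 111 in 43. Ttn, Dmd, Iigp1 and Gm4951 were also among the lowest, but 806 of 1283 UMIs of Ttn, 244 of 334 of Dmd, 40 of 123 of Iigp1 and 49 of 87 of Gm4951 came from 1 nucleus each.

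The same gate was applied to a second matrix, from C57BL/6J mice of 2, 12 and 24 months with 1 library per age, whose nuclei had no part in choosing it. It found 38 nuclei of 30000 (0.127%), 2, 33 and 3 by suffix, and again no label ties a suffix to an age. The libraries shared 99 barcodes, none of a gated nucleus. Their MHC class II level was 2052 CPM (1724 to 2424), against 1747 CPM (1254 to 2371) in 16 macrophage-type, 83.1 in 21 T-type and 42.2 in adipocyte-type nuclei. The intervals of gated and macrophage-type nuclei overlapped, so the difference between them in the first matrix was not clear here. At least 1 UMI of the B-cell genes was found in 15 of the 38.

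Between those 15 and the other 23 nuclei, B-cell receptor genes stood at 2.60 (2.02 to 3.36) and B-lineage factors at 3.77 (2.95 to 4.86). The 12 B-cell markers were at 9.42. They hold the 3 split genes, with 38 UMIs against 0 by definition, and the gate gene Bank1. That value is therefore partly fixed in advance. Ralgps2 had 25 UMIs against 1 and Bach2 46 against 13. MHC class II was at 0.816 (0.555 to 1.18) and costimulation at 0.983 (0.444 to 2.08), neither beyond counting error. MHC class I, lower in B-type nuclei of the first matrix, was at 0.901 (0.583 to 1.37) here, also within counting error. Endosomal receptor genes were at 0.721 (0.229 to 1.97) and trafficking genes at 2.47 (1.31 to 4.715). Pyroptosis genes were at 1.10 (0.522 to 2.23) and Nlrp1b at 8 UMIs against 13, so the lower level of B-type nuclei in the first matrix was not seen here at this depth. Wdfy4 was at a ratio of 0.329 (0.245 to 0.436) in the first matrix and at 0.901 (0.570 to 1.40) in the second. It is a gate gene, so the gate shapes both ratios and they are given as description.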

How the data were processed

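Single-nuclei RNA sequencing (10x Genomics) was aligned to mm10 with Cell Ranger 6.1.2 by the authors, who deposited raw UMI counts per gene and barcode in 2 matrices, for WT and Ucp1-STX4KO mice and for the aging series. The matrices hold 32285 genes. Totals were 76195924 UMIs in suffix 1 and 39857819 UMIs in suffix 2. Libraries were parted by barcode suffix, and no sample was assigned to one.

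CPM are the UMIs of a gene in a class of nuclei per 1000000 UMIs of that class. Shares carry Clopper-Pearson, levels Poisson, and ratios conditional binomial intervals, all exact at 95% and for counting error only. A gene counted as higher or lower at a ratio of at least 2 or at most 0.5, with at least 50 UMIs in both classes together. No p-value was computed. The CPM ratio and its interval were tested on simulated class totals that hold no variation between nuclei, and thinning was checked for its total. The gate, clustering and naming were not tested on simulated data.

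Gated nuclei were clustered with scanpy 1.11.5 (1000 variable genes picked within each library, 15 principal components, 15 neighbours, Leiden resolution 0.5). Over 158 nuclei, a choice made after seeing the data, clusters were named from the marker list of greatest median fold, given 3 or more raised markers and 1 among the leading genes. Scrublet called 0 barcodes in suffix 1 and 321 in suffix 2, so that its call was not used and doublets were kept. An alternative leaves out the highest 8% of scores in each library, 17 of the members.

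Named genes were those of the gate, split and lists, the 10 highest and lowest B-type to other ratios, the 10 highest gated to macrophage-type ratios (same direction in both libraries), and the 10 leading genes of each cluster with at least 20 UMIs. Some genes of the lists are not reported here by name. The members and lists were chosen with earlier results of these data known. Positions came from GENCODE vM21 and promoters from RefSeq (GRCm38.p6). Scripts ran on scipy 1.17.1, numpy 2.4.6 and pandas 2.3.3 under Python 3.11.15.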

Additional observations from a re-analysis of the deposited data

How the results depend on the processing

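With 1 library per condition there is no replicate, so the values below carry counting error only, and nuclei of suffix 1 were few. No paired analysis was possible because the libraries carry no replicate numbers and no test was run. Of 63 alternatives 35 stayed within the interval or 1.5 times the reported count, 28 moved and none reversed; the cause of a move was not tested.

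Reading the gate as 3 UMIs in each of 2 genes left 54 nuclei, and allowing no UMI of the excluded genes left 106. The B-type share was 33.3% in suffix 1, 11.9% after thinning to 500 UMIs and 17.5% when split on Pax5 and Ms4a1. Genes higher and lower in B-type nuclei numbered 52 and 116 under the stricter gate, 161 and 439 with the split on Pax5 and Ms4a1, 364 and 779 at 20 UMIs per gene, and 10 and 33 after thinning, where fewer genes reached the minimum. The MHC class II ratio of B-type to other nuclei was 0.377 in suffix 1, 0.913 in suffix 2, 0.993 after thinning and 0.833 as a mean over nuclei. The B-cell receptor ratio was 1.65 over the 158 nuclei, 2.46 in suffix 1, 2.09 in suffix 2, 2.22 after thinning and 2.20 as a mean over nuclei. MHC class II against macrophage-type nuclei was 2.71 under the stricter gate, 2.69 over the 158 nuclei, 1.23 in suffix 1, 1.67 after thinning and 1.55 without Cd74. The B-like share was 35.6% at resolution 0.3. Means over nuclei were added after seeing the data.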
